A study of Mus musculus with 4 samples.

Results

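Glutathione enzymes and targets of the transcription factor NRF2 were measured in regenerating mouse liver, in an OGFRL1 group (n = 2 arrays) and an EGFP group (n = 2 arrays). Members were all probe sets whose single platform gene symbol named a glutathione S-transferase (Gst or Mgst1 to Mgst3), a glutathione peroxidase (Gpx), or 1 of the listed genes of glutathione synthesis, of NRF2 itself (Nfe2l2), of its inhibitor Keap1 and of its target enzymes. The rule found 64 of 45101 probe sets, which name 42 of 18193 genes. Prdx1 was in the rule but had 0 probe sets with a single symbol. All mice were athymic (BALB/c nu/nu), so without mature T cells, and were given carbon tetrachloride, a hepatotoxin, 23 times in all at 0.25 ml/kg. Both groups received 1000000 human bone marrow mesenchymal stem cells into the spleen, which expressed OGFRL1 in 1 group and EGFP, a green fluorescent protein, in the control group. Partial hepatectomy was done on day 21 in both groups, and regenerating liver was taken 8 days later. The age of the mice, the vector and the animal behind each array are not given in the sources used here, so p-values measure the spread between arrays, which may be technical. The comparison asks how these genes differ between OGFRL1 and EGFP livers.

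Glutathione is a tripeptide of glutamate, cysteine and glycine that hepatocytes make in large amounts. Glutathione S-transferases join it to reactive chemicals, including products of toxins, and glutathione peroxidases use it to reduce hydrogen peroxide and lipid peroxides. NRF2 is held in the cytosol and marked for degradation by KEAP1. When electrophiles or oxidants modify KEAP1, NRF2 enters the nucleus and, with a small MAF protein, binds antioxidant response elements near genes of glutathione synthesis, conjugation and NAD(P)H-dependent reduction.

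The core of that element, TGACNNNGC, was searched on both strands of promoter windows of 300 bases, 250 before and 50 after each RefSeq start site (GRCm38.p6). Of the 42 member genes, 38 had such a window, and 8 of them (21.1%) held the core, against 13.99% of all 27025 genes with a window. A gene with several windows counted if any of them held the core. By window the shares were closer, 8 of 52 member windows (15.4%) against 12.4% of all 32851. The 8 genes were Gclm, Gsta3, Gstm5, Gstm7, Mgst1, Nfe2l2, Srxn1 and Txnrd1. The windows of 4 of them are shown because they stand for both directions of difference described below, with the match in capitals. Gsta3 (chr1:21240335-21240634, plus strand) and Gclm (chr3:122245307-122245606, plus strand) had lower signals in OGFRL1 livers. Srxn1 (chr2:152105274-152105573, plus strand) and Nfe2l2 (chr2:75704614-75704913, minus strand) had higher signals there. The match began 121 bases before the start site in Gsta3, 134 before it in Gclm, 240 before it in Nfe2l2 and 28 after it in Srxn1, and it lay on the opposite strand in Gclm and Srxn1.
Gsta3: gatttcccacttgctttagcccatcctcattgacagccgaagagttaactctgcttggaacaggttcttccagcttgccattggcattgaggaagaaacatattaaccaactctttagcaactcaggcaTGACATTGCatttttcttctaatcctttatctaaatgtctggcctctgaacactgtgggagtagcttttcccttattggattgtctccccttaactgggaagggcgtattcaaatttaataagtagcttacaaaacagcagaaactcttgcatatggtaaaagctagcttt
Gclm: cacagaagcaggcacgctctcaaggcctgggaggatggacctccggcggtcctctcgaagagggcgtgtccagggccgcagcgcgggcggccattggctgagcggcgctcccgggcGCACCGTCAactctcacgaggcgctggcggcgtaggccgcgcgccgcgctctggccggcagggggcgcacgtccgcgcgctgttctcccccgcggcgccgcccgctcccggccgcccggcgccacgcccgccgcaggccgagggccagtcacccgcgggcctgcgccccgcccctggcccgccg
Srxn1: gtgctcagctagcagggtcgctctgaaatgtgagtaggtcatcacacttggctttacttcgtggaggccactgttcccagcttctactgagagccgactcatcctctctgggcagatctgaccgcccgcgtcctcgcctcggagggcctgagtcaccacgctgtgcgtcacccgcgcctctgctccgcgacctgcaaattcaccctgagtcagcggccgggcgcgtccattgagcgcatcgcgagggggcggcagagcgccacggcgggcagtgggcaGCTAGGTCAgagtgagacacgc
Nfe2l2: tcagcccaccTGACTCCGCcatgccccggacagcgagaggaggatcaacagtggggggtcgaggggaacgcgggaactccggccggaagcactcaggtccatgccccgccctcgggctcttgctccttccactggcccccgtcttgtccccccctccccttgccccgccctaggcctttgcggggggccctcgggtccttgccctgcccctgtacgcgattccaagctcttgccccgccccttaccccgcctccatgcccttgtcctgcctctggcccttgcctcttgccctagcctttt
Members with this core thus lay on both sides of 0, and a match is a description of letters, not a bound site.

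Signals are MAS5 intensities, 1 per probe set, and each gene was read from the brightest of its probe sets. Of the 42 member genes, 37 passed the filter on dim genes (mean signal of at least 11.6) and were tested. Log2 fold changes are OGFRL1 minus EGFP on log2(signal + 3.51), with the standard error (SE) of the fit, and p-values are from limma, adjusted over all 11942 genes tested. The 18 Affymetrix spike-in probe sets, which standard protocols add in equal amounts, had a mean log2 fold change of -0.35, and 128 of the 134 genes brighter than 5000 on average had fold changes below 0 (median -0.43). The part of this shift in the members' values was not tested. The 6 hepatocyte markers tested (Alb, Apoa1, Ttr, Cps1, Tat and Ahsg) were all lower without overlap, beside 20.5% of all genes tested. At an unadjusted p under 0.05, 5 of 6 were lower, beside 6.28% of all genes, and 0 passed the threshold. All but Tat (mean signal 4134) were among the genes brighter than 5000, at mean signals of 9209 (Cps1) to 12057 (Apoa1). The part of the shift of bright genes in the marker values was not tested. Their median log2 fold change was -0.52. Their summed signals were 42907 and 47500 on OGFRL1 arrays 1 and 2, against 78464 and 55112 on EGFP arrays 1 and 2.

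No member passed the threshold of 0.05 after adjustment, where 0.511% of all genes tested did (0.36% higher and 0.151% lower), and the smallest adjusted p among members was 0.10. At an unadjusted p under 0.05 there were 16 of 37 members (43.2%), 6 higher and 10 lower in OGFRL1 livers, against 15.3% of all genes, 9.01% higher and 6.28% lower. The groups did not overlap for 24 of 37 members, 9 higher and 15 lower, while 47.5% of all genes showed no overlap, 27.0% higher and 20.5% lower. The log2 fold change was below 0 for 19 of 37 members and for 44.4% of all genes, and its median was -0.06 over the members and 0.04 over all genes. Members thus lay on both sides of 0, the transferases and peroxidases with high signals mostly below it and several dimmer enzymes above it. Precision is limited by having 2 arrays a group, and in whole liver fewer cells of a type and less RNA per cell cannot be told apart.

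**Figure D1:**
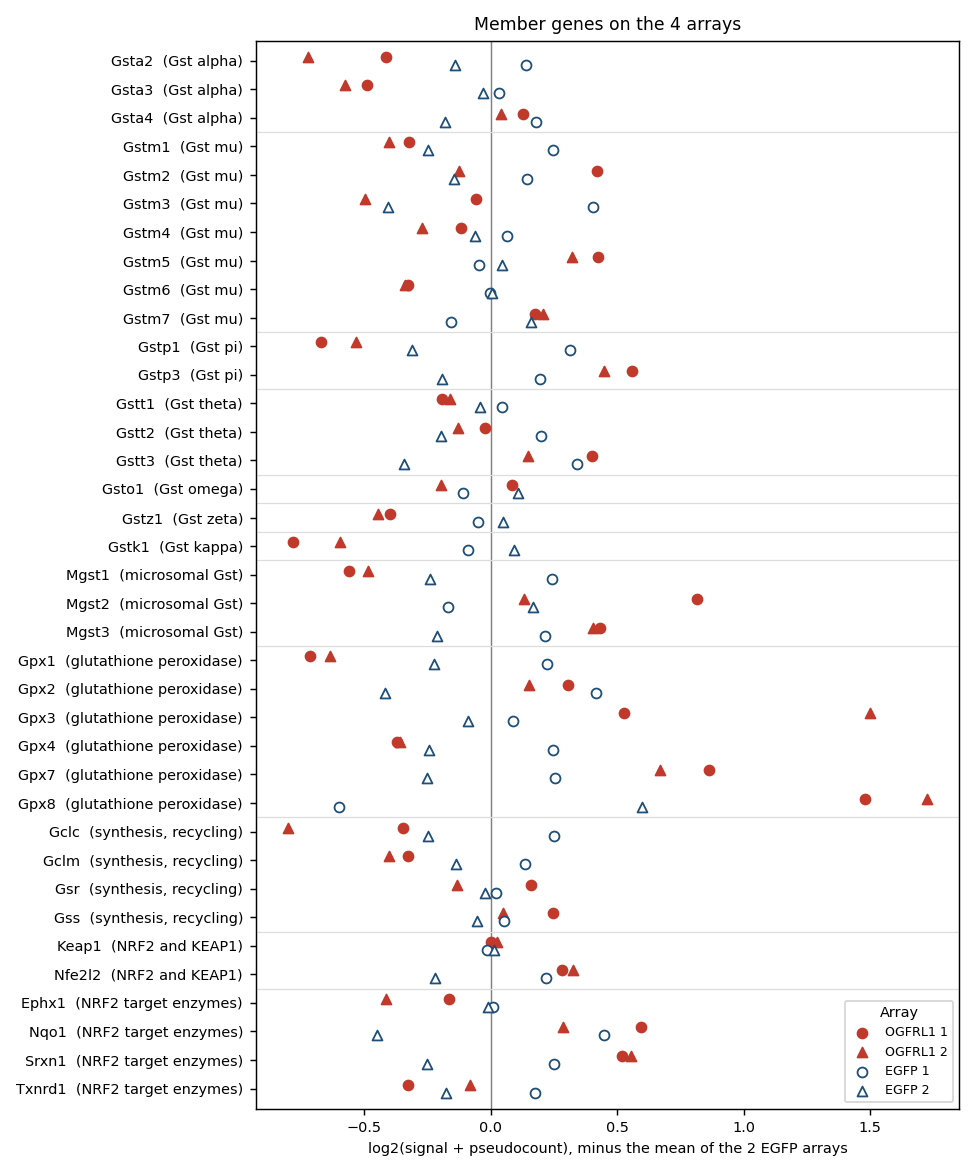
Signal of each of the 37 tested member genes on each array, as log2(signal + 3.51) minus the mean of the 2 EGFP arrays (horizontal axis), with genes down the page by role. Filled symbols are OGFRL1 arrays and open symbols EGFP arrays; the groups do not overlap for 24 genes, among them Gstk1, Gsta2, Gsta3 and Gpx1 on the low side and Gpx3, Gpx7 and Gpx8 on the high side.

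The alpha class of glutathione transferases, soluble enzymes abundant in hepatocytes, had lower signals for 2 of its 3 tested members. Gsta3, which conjugates the aflatoxin epoxide in mouse liver, had signals of 3816 and 3599 on OGFRL1 arrays 1 and 2, against 5477 and 5245 on EGFP arrays 1 and 2. The OGFRL1 mean was 69.1% of the EGFP mean, the log2 fold change -0.53 ± 0.13 (SE, limma adjusted p = 0.139), and its other probe set gave -0.68 ± 0.16. Both probe sets of Gsta3 thus put both OGFRL1 arrays below both EGFP arrays. Gsta2 had signals of 3669 and 2957 in OGFRL1 livers, against 5385 and 4431 in EGFP livers, a log2 fold change of -0.57 ± 0.17 (adjusted p = 0.203). A probe set shared by Gsta1, Gsta2 and Gm3776, which is no member because it carries several symbols, had 3839 and 3339 against 4999.8 and 4188, so the alpha transcripts of these close paralogs cannot be separated. Gsta4, an enzyme for the lipid peroxidation product 4-hydroxynonenal, had 1856 and 1745 in OGFRL1 livers, against 1926 and 1499 in EGFP livers. Its groups overlapped, and its log2 fold change of 0.08 had a 95% interval of -0.31 to 0.47.

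The mu class, whose 7 genes neighbour each other in the RefSeq annotation, went in both directions. Gstm6 had 506 and 502 in OGFRL1 livers, against 634 and 637 in EGFP livers, a log2 fold change of -0.33 ± 0.13 (adjusted p = 0.285). Gstm5 had 459.7 and 428 in OGFRL1 livers, against 331 and 353 in EGFP livers, a log2 fold change of 0.37 ± 0.14 (adjusted p = 0.267). As deposited, these genes of 1 cluster had groups apart on opposite sides of 0, while scaling to the spike-ins put both above 0, Gstm6 at 0.016 and Gstm5 at 0.72. Gstm1, the main mu enzyme of mouse liver, had 6323 and 5986 in OGFRL1 livers, against 9399 and 6670.3 in EGFP livers (-0.36 ± 0.19, adjusted p = 0.435). Only EGFP array 1 stood well above the rest for Gstm1, and without it the log2 fold change was -0.12. The value turned to 0.056 after quantile normalization and was -0.014 after spike-in scaling. Of the remaining mu genes Gstm4 was lower (-0.19 ± 0.14) and Gstm7 higher (0.19 ± 0.16) without overlap, while Gstm2 (0.15 ± 0.21) and Gstm3 (-0.28 ± 0.28) overlapped. Mu class transcripts are similar in sequence and may bind each other's probes, so these assignments are uncertain.

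The pi class was split in the same way. Gstp1, a transferase known for male-biased expression in mouse liver, had signals of 7627 and 8416 in OGFRL1 livers, against 15109 and 9787 in EGFP livers. Both OGFRL1 arrays lay below both EGFP arrays, but EGFP array 1 was far above EGFP array 2. The log2 fold change was -0.60 ± 0.22 (adjusted p = 0.276), -0.29 without EGFP array 1, -0.91 without EGFP array 2 and -0.054 after quantile normalization. Gstp3, a pi class paralog, had 263 and 244 in OGFRL1 livers, against 204 and 155 in EGFP livers (0.50 ± 0.18, adjusted p = 0.256), and its log2 fold change was 0.31 without EGFP array 2.

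Single-gene classes gave the smallest p-value of the members. Gstk1, the kappa class transferase of mitochondria and peroxisomes, had signals of 1184 and 1344 in OGFRL1 livers, against 1911 and 2167 in EGFP livers. The groups were well apart, the OGFRL1 mean was 62.0% of the EGFP mean, and the log2 fold change was -0.69 ± 0.14 (adjusted p = 0.10). It was -0.61 after quantile normalization and -0.34 after scaling to the spike-ins. Gstz1, the zeta class enzyme that also acts in tyrosine breakdown as maleylacetoacetate isomerase, had 1943 and 1878 in OGFRL1 livers, against 2472 and 2652 in EGFP livers (-0.42 ± 0.13, adjusted p = 0.204). Spike-in scaling left Gstz1 at -0.07. Of the theta class, Gstt1 was at 1703 and 1743 against 2007 and 1890.2 (-0.18 ± 0.13), while Gstt2 (-0.08 ± 0.17) and Gstt3 (0.27 ± 0.24) overlapped. Gsto1, the omega class enzyme, had overlapping groups and a log2 fold change of -0.06 ± 0.16 on its brightest probe set. Its other probe set was lower without overlap, at 633 and 685 in OGFRL1 livers, against 848 and 762 in EGFP livers (-0.29 ± 0.14).

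The microsomal transferases are membrane proteins of a separate family. Mgst1 had signals of 7910 and 8328 in OGFRL1 livers, against 13791 and 9865 in EGFP livers, with a log2 fold change of -0.52 ± 0.19 (adjusted p = 0.271). As for Gstp1, EGFP array 1 was the highest, and the value was -0.28 without it and 0.02 after quantile normalization. Mgst3 had 447 and 439 in OGFRL1 livers, against 384 and 284 in EGFP livers (0.42 ± 0.18, adjusted p = 0.333), with 0.20 without EGFP array 2 and -0.26 when its probe sets were averaged, the other of which was near background. Mgst2 was dim, at 18.5 and 10.2 in OGFRL1 livers, against 7.6 and 10.5 in EGFP livers, with overlapping groups.

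The glutathione peroxidases showed the widest spread of fold changes among the roles. Gpx1, the cytosolic selenoenzyme that removes hydrogen peroxide, had signals of 5433 and 5731 in OGFRL1 livers, against 10407 and 7634 in EGFP livers. The groups did not overlap, and the OGFRL1 mean was 61.9% of the EGFP mean (log2 fold change -0.68 ± 0.18, adjusted p = 0.164). It was -0.44 after cyclic loess normalization, -0.28 after quantile normalization and -0.33 after spike-in scaling. Gpx4, which reduces lipid hydroperoxides in membranes and protects from ferroptosis, had 3372 and 3405 in OGFRL1 livers, against 5174 and 3681 in EGFP livers (-0.36 ± 0.19, adjusted p = 0.423). Without EGFP array 1 Gpx4 was at -0.12.

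Other peroxidases had higher signals in OGFRL1 livers. Gpx3, the secreted plasma enzyme, had 144 and 286 in OGFRL1 livers, against 105 and 92.7 in EGFP livers. Both OGFRL1 arrays lay above both EGFP arrays but differed widely from each other, and the log2 fold change was 1.01 ± 0.31 (adjusted p = 0.207), or 0.53 without OGFRL1 array 2. Gpx7, a peroxidase of the endoplasmic reticulum, had 177 and 154 in OGFRL1 livers, against 114 and 79.5 in EGFP livers (0.77 ± 0.21, adjusted p = 0.172). Gpx8, its relative in the same compartment, had 27.6 and 33.4 in OGFRL1 livers, against 3.86 and 13.4 in EGFP livers (1.60 ± 0.46, adjusted p = 0.179). On EGFP array 1 Gpx8 lay below that array's highest signal among 27 probe sets for bacterial transcripts (13.3), and on EGFP array 2 above it (8.59). Its log2 fold change is therefore no exact value: it was 1.00 with 4 times the pseudocount, 2.08 with a floor in its place, 1.00 without EGFP array 1 and 2.20 without EGFP array 2. Gpx2, an epithelial enzyme, overlapped at 35.6 and 31.7 against 38.8 and 20.2.

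Markers of stellate cells and myofibroblasts were also mostly higher in OGFRL1 livers, with 5 of 6 above 0 and a median log2 fold change of 1.07. Their summed signals were 782 and 958 in OGFRL1 livers, against 413 and 438 in EGFP livers. Lrat was the marker below 0, at -0.08 ± 0.17, and Des was at 0.29 ± 0.24. Col1a1 was at 120 and 177 against 26.8 and 42.1 (2.002 ± 0.28, adjusted p = 0.0503). All 4 markers of cycling cells were above 0, with sums of 1552 and 1924 in OGFRL1 livers, against 711 and 386 in EGFP livers, and Birc5 was the only 1 of them past the threshold (2.36 ± 0.21, limma adjusted p = 0.0364). Cholangiocyte markers had sums of 105 and 110 in OGFRL1 livers, against 109 and 111 in EGFP livers, and of its 5 genes on the arrays Cftr stayed at or below the highest bacterial control signal on every array. Kupffer cell and macrophage sums overlapped, at 2734 and 4551 against 4648 and 2494, as did endothelial sums, at 455 and 550 against 591 and 443. The part of cell composition in the members' values was not tested.

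**Figure D2:**
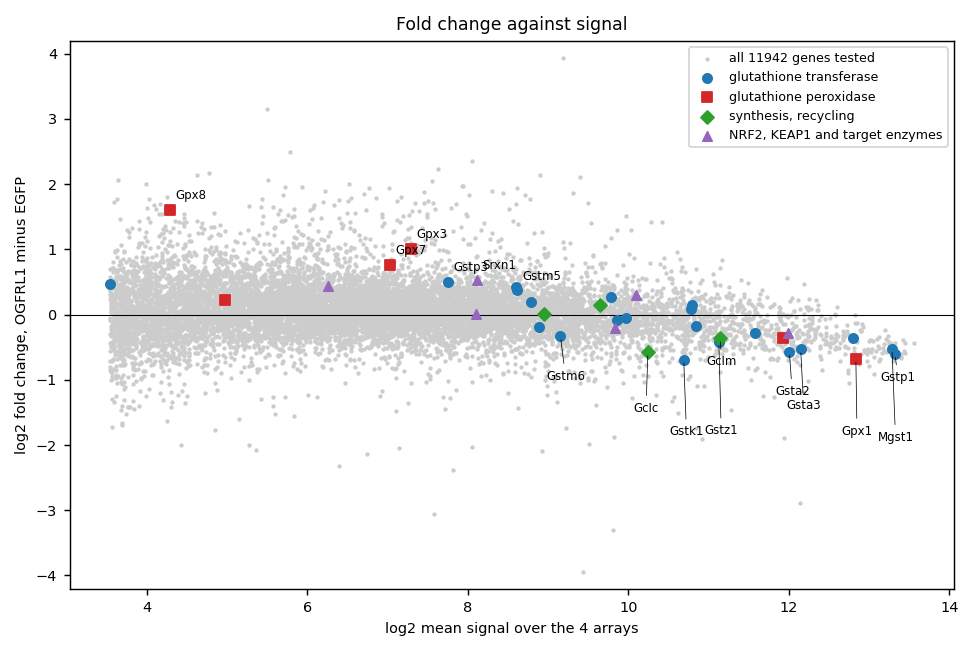
Log2 fold change (OGFRL1 minus EGFP, vertical axis) against log2 mean signal over the 4 arrays (horizontal axis) for all 11942 genes tested (grey) and the 37 member genes by role (coloured), with names for the 16 at an unadjusted p under 0.05. All 4 members over a signal of 5000 lie below 0, as do 128 of all 134 genes there, and 15 of the 19 members at 1000 or under lie above 0.

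Members with high signals lay mostly below 0 and dim ones mostly above, as did all genes. Above a mean signal of 5000 all 4 members (Gpx1, Gstm1, Gstp1 and Mgst1) were below 0 with a median of -0.56, beside a median of -0.43 for 134 genes. Between 1000 and 5000, 11 of 14 members were below 0 with a median of -0.33, beside 647 of 978 genes and a median of -0.13. At 1000 or under, 4 of 19 members were below 0 with a median of 0.27, beside 4533 of 10830 genes and a median of 0.06. The members differed in the same sense as all genes of their signal range in each of the 3 ranges.

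Both subunits of the rate-limiting enzyme of glutathione synthesis had lower signals in OGFRL1 livers. Gclc, the catalytic subunit of glutamate-cysteine ligase, had signals of 1124 and 819 in OGFRL1 livers, against 1700.2 and 1204 in EGFP livers (-0.57 ± 0.22, adjusted p = 0.299). Gclm, its modifier subunit, had 2028 and 1928 in OGFRL1 livers, against 2801 and 2315 in EGFP livers (-0.36 ± 0.15, adjusted p = 0.318). Both subunits thus had groups apart on the low side, and their other probe sets gave -0.31 ± 0.17 for Gclc and -0.13 ± 0.23 for Gclm. Without EGFP array 1 Gclc was at -0.33 and Gclm at -0.23, without OGFRL1 array 2 Gclc was at -0.35, and spike-in scaling gave -0.23 and -0.01. Gss, glutathione synthetase, the second enzyme of the pathway, had 906 and 788 in OGFRL1 livers, against 791 and 734 in EGFP livers, and a log2 fold change of 0.15 with a 95% interval of -0.19 to 0.48. Gsr, the reductase that recycles oxidised glutathione, had 546 and 445 against 496 and 481, with a log2 fold change of 0.01 and an interval of -0.35 to 0.38. Slc7a11, the cystine importer, was near the bacterial controls at 13.9 and 7.0 in OGFRL1 livers, against 8.5 and 5.6 in EGFP livers, and was not tested.

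Of the genes of NRF2 and KEAP1, Nfe2l2 was higher in OGFRL1 livers on its main probe set, and Keap1 was close between the groups. Nfe2l2 had signals of 1189 and 1225 in OGFRL1 livers, against 1137 and 839 in EGFP livers. The groups were just apart, and the log2 fold change of 0.30 ± 0.17 (adjusted p = 0.47) was 0.09 without EGFP array 2. Keap1 had 273 and 278 in OGFRL1 livers, against 270.2 and 276 in EGFP livers, a log2 fold change of 0.01 with a 95% interval of -0.31 to 0.34. NRF2 activity is set largely by protein stability and location, which these arrays do not measure.

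NRF2 target enzymes lay on both sides of 0. Srxn1, sulfiredoxin, which reactivates oxidised peroxiredoxins, had 321 and 330 in OGFRL1 livers, against 266 and 187 in EGFP livers (0.54 ± 0.19, adjusted p = 0.263). Its groups were apart on the high side, 2 further probe sets gave 0.26 ± 0.19 and 0.53 ± 0.24, and the dimmest gave -0.10 ± 0.28. Without EGFP array 2 the log2 fold change of Srxn1 was 0.29. Nqo1, the quinone reductase often used as a readout of NRF2, had 96.7 and 77.3 in OGFRL1 livers, against 87.0 and 45.1 in EGFP livers. Its groups overlapped (0.44 ± 0.32, adjusted p = 0.576), and the value was -0.01 without EGFP array 2. Txnrd1, the cytosolic thioredoxin reductase, overlapped at 776 and 919 against 1100.0 and 862 (-0.21 ± 0.17). Ephx1, the microsomal epoxide hydrolase, had 3992 and 3357 in OGFRL1 livers, against 4503 and 4444 in EGFP livers (-0.29 ± 0.15, adjusted p = 0.414). The 5 probe sets that list Prdx1 together with Gm21399 had log2 fold changes of -0.38 to 0.35, and 3 of them were lower without overlap.

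**Figure D3:**
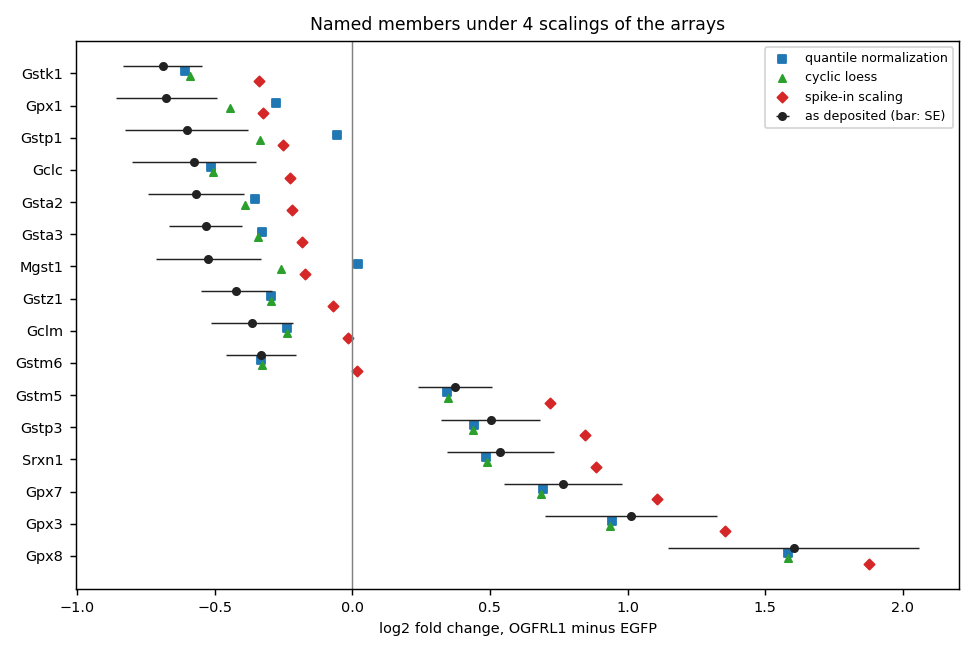
Log2 fold change (OGFRL1 minus EGFP, horizontal axis) of the 16 members at an unadjusted p under 0.05, with the arrays as deposited (black, bar: SE), after quantile normalization (blue), after cyclic loess (green) and after spike-in scaling (red). The 9 lower members with a mean signal over 1000 come nearer to 0 under each of these, Mgst1 reaching 0.02 with quantile normalization, and the 6 higher members move up under spike-in scaling.

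The calls depended on the array and the scaling. Without EGFP array 1, 5 of 37 members passed the threshold (Gpx7, Mgst3 and Srxn1 higher, Gsta3 and Gstk1 lower), beside 5.18% of all genes, 3.03% higher and 2.15% lower. Without EGFP array 2, 11 did (Gpx8 higher, and Gclc, Gclm, Gpx1, Gpx4, Gsta2, Gsta3, Gstk1, Gstm1, Gstp1 and Mgst1 lower), beside 7.17% of all genes, 3.77% higher and 3.4% lower. Gsta3 and Gstk1 were the 2 called in both. Those fits take their spread from the OGFRL1 pair and assume that the lone EGFP array varies alike. Scaling to the spike-ins raised the median of all genes to 0.38 and called 12.6% of them, 12.1% higher and 0.477% lower. It called 8 members, all higher (Gpx3, Gpx7, Gpx8, Gstm5, Gstp3, Mgst3, Nqo1 and Srxn1), while the median over members was 0.29. A block that crossed the replicate numbers, chosen after seeing the data, called 7 members, 3 higher and 4 lower, beside 7.82% of all genes, 4.61% higher and 3.22% lower. Under each of the 17 alternatives the fold changes of Gclc, Gclm, Gpx1, Gpx4, Gsta2, Gsta3, Gstk1, Gstp1 and Gstz1 were below 0, and those of Gpx3, Gpx7, Gstm5, Gstp3, Srxn1, Nfe2l2 and Gss above 0. Gpx8 and Mgst2 were above 0 in each of the 16 that tested them. Filters, blocks, the trend and the fit of every probe set cannot change a fold change, so only the other alternatives could turn these signs.

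**Figure D4:**
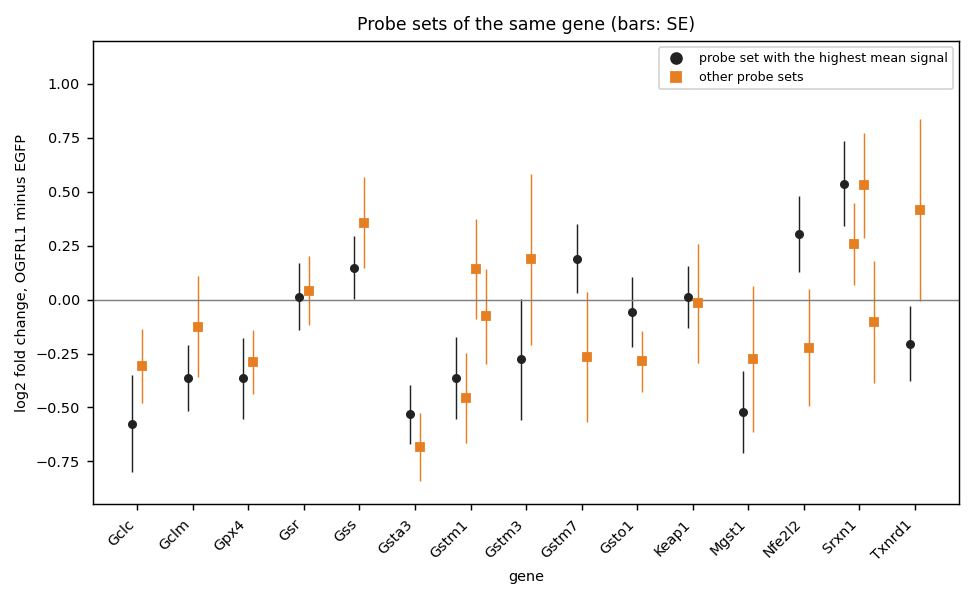
Log2 fold change (OGFRL1 minus EGFP, vertical axis; bars: SE) of every probe set past the filter for the 15 members with several, the one with the highest mean signal as a black circle and the others as orange squares. In 8 genes all probe sets lie on the same side of 0, and in 7 they lie on both sides.

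Several members were measured by more than 1 probe set. Among 15 members with several probe sets past the filter, 8 had all of them on the same side of 0 (Gclc, Gclm, Gpx4, Gsr, Gss, Gsta3, Gsto1 and Mgst1). The other 7 were Gstm1, Gstm3, Gstm7, Keap1, Nfe2l2, Srxn1 and Txnrd1. Dim probe sets counted among the 8 as well as the 7, such as one of Mgst1 (mean signal 16.8) and one of Txnrd1 (15.5). Both Gsr values were near 0, at 0.01 and 0.04. For Nfe2l2 the dimmer probe set had a log2 fold change of -0.22 ± 0.27, so the higher signal of its main probe set was not seen in the other. The 5 untested members were Gpx5, Gpx6, Gsto2, Gstt4 and Slc7a11, of which the first 4 had signals of 0.67 to 6.62 in OGFRL1 livers, against 1.85 to 14.2 in EGFP livers, at about the level of the bacterial controls.

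Further genes of the pathway were read from lists. Among 22 tested further NRF2 targets 1 passed the threshold, beside 0.511% of all genes tested (0.151% lower). Osgin1, an oxidative stress-induced growth inhibitor, had 324 and 339 in OGFRL1 livers, against 704 and 630 in EGFP livers (-1.001 ± 0.14, adjusted p = 0.0491). That call held in 5 of 17 alternatives, with adjusted p from 0.00071 to 0.401. Aox3, an aldehyde oxidase, had -1.38 ± 0.20 (adjusted p = 0.0537), while the carbonyl reductase Cbr1 had 0.78 ± 0.17 and the exporter Abcc4 0.68 ± 0.21. The list had 9 genes above and 13 below 0 and a median of -0.15. Of its genes, 2 were higher and 4 lower at an unadjusted p under 0.05, beside 9.01% and 6.28% of all genes. Of 25 genes of glutathione turnover and cysteine supply 0 passed, with 9 above and 16 below 0 and a median of -0.21. At an unadjusted p under 0.05, 0 were higher and 9 lower, beside 9.01% and 6.28% of all genes. Several were bright, such as Bhmt (mean signal 11073) and Gnmt (7513), and 128 of the 134 genes over 5000 were below 0. The part of signal in these counts was not tested. The leading genes of this list were the glyoxalases Glo1 (-0.63 ± 0.13, adjusted p = 0.10) and Hagh (-0.52 ± 0.13), which use glutathione to remove methylglyoxal.

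In the other lists the calls were as few. Counts at an unadjusted p under 0.05 stand beside 9.01% higher and 6.28% lower of all genes. Of 15 genes of NADPH supply 0 passed (4 above and 11 below 0, 0 and 5 at an unadjusted p under 0.05), led by malic enzyme Me1 at -1.01 ± 0.22 and Aldh1l1 at -0.73 ± 0.17. Of 21 thioredoxins, peroxiredoxins and superoxide dismutases 0 passed (8 above and 13 below 0, 0 and 5 at an unadjusted p under 0.05), led by mitochondrial Sod2 at -0.53 ± 0.14 and the methionine sulfoxide reductase Msrb1 at -0.50 ± 0.13. Among 19 partners and regulators of NRF2 (9 above and 10 below 0, 1 and 1 at an unadjusted p under 0.05) the only call was Brca1. This gene, better known from DNA repair, was at 137 and 130.1 against 46.6 and 56.3 (1.32 ± 0.18, adjusted p = 0.0498). The call held in 6 of 17 alternatives, and 0.36% of all genes were called higher. The gene lower at an unadjusted p under 0.05 was Nfe2l1, at -0.61 ± 0.25. Of 11 targets of the xenobiotic receptors CAR and PXR 0 passed (5 above and 6 below 0, 0 and 3 at an unadjusted p under 0.05). Of 6 genes of the aryl hydrocarbon receptor 0 passed (3 above and 3 below 0, 1 and 0 at an unadjusted p under 0.05). Their median was 0.06. The 1 gene was Cyp1a1 at 1.65 ± 0.25 (limma adjusted p = 0.0552), which was dim, with mean signals of 67.2 in OGFRL1 and 18.9 in EGFP livers. Ahr was at 0.35 ± 0.17 and Cyp1a2 at -0.24 ± 0.19.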

How the data were processed

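Total liver RNA (100 ng for each array, as the labels state) was hybridised to 4 single-colour Affymetrix arrays. The deposited values are linear MAS5 intensities, 1 per probe set. MAS5 is named in the submitters' processing notes, and its version and settings are not given in the sources used here. With 2% trimmed at each end every deposited array had a mean intensity of 100.0, so the arrays were scaled as wholes. The platform annotation gave 34945 probe sets 1 symbol, 932 several and 9160 none, beside 64 controls, and the RefSeq gene table changed 0 symbols.

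Before log2, 3.51 was added to each value as a pseudocount, which is their 25th percentile. Each gene was read at its brightest probe set and kept at a mean of at least 11.6 (the median over probe sets). The 11942 genes kept were fitted in R 4.3.3 by limma 3.58.1 (2-sided moderated test from lmFit and trended eBayes; 2 residual and 4.48 prior degrees of freedom; Benjamini-Hochberg, threshold 0.05), and the fit was tested on simulated data. Other software was matplotlib 3.10.9, numpy 2.4.6, pandas 2.3.3 and Python 3.11.15. Members and gene lists were chosen with earlier results of these data known, and 158 of 173 list entries matched a probe set. Every member is named, and of other lists up to 4 genes by call and then by absolute moderated t. The replicate numbers are not said to pair the arrays, and over 11942 genes the deviations of same-numbered arrays from their group means correlated at -0.28. Alternatives were 4 scalings, 2 pseudocount settings, 2 filters, 2 uses of probe sets, no intensity trend, the replicate block, each array left out and, added after seeing the data, a crossed replicate block, 17 in all.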

Additional observations from a re-analysis of the deposited data

How the results depend on the processing

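No member passed the threshold as deposited, nor in 13 of the 17 alternatives. The exceptions were spike-in scaling (8 calls, with a median over members of 0.29), the leave-one-out fits (0 to 11 calls) and a crossed replicate block (7 calls), which was chosen after seeing the data because same-numbered arrays deviated in opposite directions (-0.28). With the replicate number as a block 0 members passed, 10 at an unadjusted p under 0.05 against 16 without it. The median over members ran from -0.19 to 0.03 when an array was left out. The filter settings, the fit without a trend, both replicate blocks and the fit of every probe set leave a fold change unchanged by design. Direction could thus turn only in the other alternatives. Of 625 pairs of a tested member and an alternative, these fixed ones included, 597 kept their direction. With spike-in scaling it turned for Ephx1 (0.061), Gstm3 (0.073), Gstm4 (0.15), Gstm6 (0.016), Gsto1 (0.29), Gstt1 (0.17), Gstt2 (0.27) and Txnrd1 (0.14). With quantile normalization it turned for Gstm1 (0.056), Keap1 (-0.043) and Mgst1 (0.019), and with cyclic loess for Gsto1 (0.00021) and Keap1 (-0.037). With the mean over probe sets it turned for Gstm7 (-0.037), Keap1 (-0.0021) and Mgst3 (-0.26). When each array was left out in turn, 10 members had values on both sides of 0: Gpx2 from -0.19 to 0.64, Gsr from -0.13 to 0.16, Gsta4 from -0.097 to 0.26, Gstm2 from -0.12 to 0.42, Gstm3 from -0.68 to 0.13, Gsto1 from -0.20 to 0.085, Gstt2 from -0.27 to 0.12, Gstt3 from -0.070 to 0.62, Keap1 from -0.0012 to 0.027 and Nqo1 from -0.0078 to 0.89. The cause was not tested. Quantile normalization called 4 of all genes and the stricter filter 2, against 61 as deposited and 18 with cyclic loess. Spike-in scaling called 1506, the crossed block 934, and the fits without a filter or without a trend 0. An unadjusted p under 0.05 was reached by 16 members without a filter and by 8 without a trend. The share of all genes at that level was not counted for those fits or for the replicate block.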
